A study of Apis mellifera with 2 samples.

Results

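The barcodes described here are the nuclei with the highest share of 4 transcripts, Crzr, FAR1, LOC551879 and LOC551560, in the snRNA-seq library of honeybee foragers (Apis mellifera) given bromocriptine (BRC). Barcodes of the BRC library with 200 to 5000 genes, 19945 in all, were ranked by the summed UMIs of these genes as a share of the UMIs (unique molecular identifiers, each marking a captured RNA molecule) of the barcode. The first 1500 ranks are called members and the remaining 18445 barcodes are called other barcodes. The series holds 2 libraries and 40000 listed barcodes. The group was thus chosen on measured values, so the levels of the 4 genes, and the differences between members and other barcodes in the same nuclei, are descriptions and not tests.

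Both libraries came from dissected brains of worker foragers, of the subspecies carnica per the methods, with eyes, ocelli and tracheae removed, and differed in that the bees were given either BRC, a drug that activates dopamine receptors of the D2 type, in ddH2O, or ddH2O alone. The sample titles describe feeding, whereas the treatment protocol and the methods describe a spray, which the methods say was applied daily to whole colonies. The series text gives 15 foragers per group, and the methods state a larger pool drawn evenly from several colonies. There is 1 library per condition, no label of a batch and no replicate, and p-values are therefore not given. Ranges in parentheses after a level, share or ratio are 95% intervals for counting error alone.

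Crzr encodes the receptor of corazonin, a neuropeptide of insects that acts on peripheral tissues as well as on the brain. FAR1 encodes a fatty acyl-CoA reductase, an enzyme that turns fatty acyl-CoA into fatty alcohols, which insects use for hydrocarbons and waxes. The fat body is the storage and secretory tissue of insects, which surrounds the brain within the head capsule and makes vitellogenin, hexamerins and immune peptides. Oenocytes, which lie with it, make cuticular hydrocarbons. LOC551879 and LOC551560 carry identifiers only. The RefSeq annotation of assembly Amel_HAv3.1, the build the methods name, lists all 4 as protein-coding genes on different linkage groups. Crzr lies on linkage group 1 (10198903 to 10212094), FAR1 on 12 (7986263 to 8012699), LOC551879 on 7 (10547812 to 10553466) and LOC551560 on 11 (10031601 to 10034209).

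The BRC library held 76531513 UMIs and the ddH2O library 77047419, each over 20000 listed barcodes. Median depth was 2109 UMIs per barcode in BRC and 3327 in ddH2O, a gap that runs with the treatment. At least 3 of the 4 pan-neuronal markers Syt1, nSyb, fne and brp were found in 41.0% of BRC barcodes and 99.3% of ddH2O barcodes. The libraries shared 120 barcode sequences, of which 6 belonged to members, and leaving those out moved the numbers of genes given below by at most 2.

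The 4 genes made up between 0.901% and 3.17% of the UMIs of a member, with a median of 1.24%. The last member had 14 UMIs of the 4 genes among 1554, and the first barcode outside had 22 among 2445 (0.900%), so the limit does not fall in a gap. The share went on declining to 0.704% at rank 2000, 0.50% at rank 2500 and 0.318% at rank 3000. Among the other barcodes the median was 0.0210%, and 8086 of them (43.8%) had no UMI of any of the 4. Members were deeper than other barcodes, with a median of 2685 UMIs (1143 to 12939) and 1212.5 genes against 2056 UMIs and 1053 genes. Of the members, 1499 also passed the filter of the study on complexity and mitochondrial share. The median mitochondrial share was 0.0462% in members and 0.0506% in other barcodes.

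**Figure D1:**
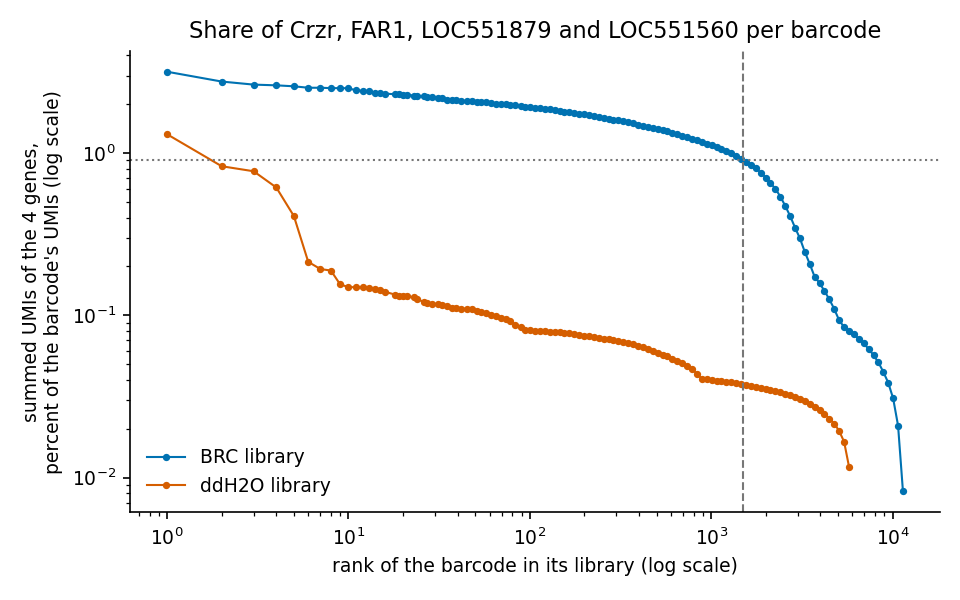
Share of the UMIs of a barcode that came from Crzr, FAR1, LOC551879 and LOC551560 (y axis, percent, log scale) against its rank in its own library (x axis, log scale), for BRC (blue) and ddH2O (orange). The dashed line marks rank 1500 and the dotted line the share of the last member, 0.901%, which 1 ddH2O barcode passed; barcodes without a UMI of the 4 genes are not drawn.

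Crzr reached 3097 CPM (counts per 1000000 UMIs) over the members and 205 CPM over the other barcodes. Per member it had a median of 8 UMIs, a lowest value of 0 and a highest of 49. FAR1 reached 5755 and 285 CPM, with a median of 14 UMIs per member and a range from 0 to 91. LOC551879 reached 2892 and 107 CPM, with a median of 7 UMIs (0 to 52), and LOC551560 1392 and 70.3 CPM, with a median of 3 UMIs (0 to 32). Nearly every member thus carried several of the transcripts, and no gene was present in all members. The log2 ratio of members over other barcodes was 3.91 for Crzr, 4.34 for FAR1, 4.75 for LOC551879 and 4.31 for LOC551560, and 3.09, 3.75, 3.97 and 3.69 at matched depth. Members held 6.15% of the UMIs of the ranked barcodes, but 49.7% of those of Crzr, 57.0% of FAR1, 63.9% of LOC551879 and 56.5% of LOC551560.

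All 4 genes were found together in 1315 members (87.7%, 85.9 to 89.3) and in 844 other barcodes (4.58%, 4.28 to 4.89). With each barcode thinned at random to 1000 UMIs, which removes the difference in depth and left out 0 barcodes, these shares were 56.4% (53.8 to 58.9) and 1.33% (1.17 to 1.5). A UMI of Crzr was found in 91.8% of thinned members, of FAR1 in 97.5%, of LOC551879 in 86.7% and of LOC551560 in 71.0%. Unthinned, these shares were 98.7%, 99.9%, 96.0% and 91.5%. The same shares were taken in all 8184 BRC barcodes with at least 3 of the 4 pan-neuronal markers, whatever their rank (median 2277 UMIs), 98 of which were members. Thinned, they came to 9.25% for Crzr, 18.8% for FAR1, 7.42% for LOC551879 and 4.90% for LOC551560, and unthinned to 16.2%, 37.9%, 14.7% and 11%. The part of free RNA in these shares was not tested.

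Each of the 4 genes was also measured after a ranking by the other 3, so that its own counts had no part in that ranking. The 4 genes were put together with earlier results of these data known, so these values are a description and no independent check. In 1500 barcodes ranked without Crzr, 1354 of them members, Crzr stood at 2805 CPM against 224 CPM in the remaining barcodes, 12.5-fold higher. Ranked without FAR1, 1156 barcodes were shared with the members, and FAR1 stood at 4226 against 383 CPM, 11-fold higher. LOC551879 was 18.5-fold higher (2489 against 135 CPM, 1329 shared barcodes) and LOC551560 16.4-fold (1279 against 78.1 CPM, 1416 shared). Thinned shares of barcodes with a UMI of the gene left out lay between 67.7% for LOC551560 and 90.1% for FAR1, above the 6.98% to 20.8% of the remaining barcodes. The 4 transcripts, chosen together, occurred in largely the same nuclei, and FAR1 was the gene on which membership turned most.

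Outside these 4 genes, 4285 genes could be compared, having at least 100 UMIs over both groups and a UMI in over 10% of the barcodes of either. A gene could thus enter through the group where it was higher, and the numbers below depend in part on that filter. Of these, 433 (10.1%) were at least 2-fold higher in members and 962 (22.5%) at least 2-fold lower. The median log2 ratio over all 4285 genes was -0.24, so ratios are best read against that value. Only 187 of the genes carry a symbol or a name from the study, 19 of the higher ones and 70 of the lower ones. The 15 genes with the highest ratios, with log2 ratios between 3.65 and 4.29, all carry identifiers only. LOC100577346 had 523 CPM in members and 26.8 in other barcodes, and LOC551850 had 607 and 32.4. At the other end, LOC409787 had 34.3 CPM in members and 1438 in other barcodes (log2 ratio -5.39), and LOC100577278 had 3.51 and 117 (-5.06). Of the 10 genes with the lowest ratios, 2 carry a symbol. These were SIFR, a neuropeptide receptor gene (6.59 and 144 CPM), and Vmat, the vesicular monoamine transporter gene (29.0 and 543 CPM). These values also depend on where the group ends, since many barcodes between the last member and rank 3000 were themselves high in the same genes. Compared only with barcodes beyond rank 3000, the log2 ratio of LOC100577346 was 5.82 instead of 4.29, and it was 3.58 against other barcodes of the same depth. Depth weighed more at the low end, where the log2 ratio of LOC409787 was -2.90 at matched depth, that of LOC100577278 -3.25 and that of Vmat -2.23, and that of SIFR was -2.19 with the top 3000 as members.

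The nuclear receptor svp (seven-up, LOC408872), a marker of optic lobe cells in the study that in Drosophila is also used in fat body and oenocytes, stood at 1882 CPM in members and 314 CPM in other barcodes, 5.99-fold higher. Thinned, members had a median of 2 UMIs (0 to 8), and 80.3% of members and 18.4% of other barcodes had a UMI of it. Of 7 optic lobe genes, 3 could be compared, with a median log2 ratio of -0.19. Besides svp these were hth (-0.19, and 0.85 at matched depth) and eya, at least 2-fold lower (10.8 and 36.2 CPM). Over all compared genes, 10.1% were at least 2-fold higher and 22.5% at least 2-fold lower. Dsx (doublesex), the transcription factor at the end of the sex determination pathway, stood at 3291 and 929 CPM, 3.54-fold higher, and was found in 94.6% and 37.9% of thinned barcodes, with a median of 3 UMIs per member (0 to 14). Among the other genes of that pathway, Csd, Fem and tra2 differed by less than 2-fold, with log2 ratios of 0.20, 0.20 and -0.27. Mblk-1, the bee counterpart of the ecdysone-response factor E93 of Drosophila, had a median of 8 UMIs in thinned members and 3 in other barcodes, and 7934 against 3669 CPM. Its log2 ratio of 1.11 was 0.95 against other barcodes of the same depth, which is under 2-fold.

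Of 7 genes of ecdysteroid and juvenile hormone signalling that could be compared, Mblk-1 was at least 2-fold higher and Br-c, the broad complex gene, at least 2-fold lower (10.3 against 80.9 CPM). Of all compared genes, 10.1% were at least 2-fold higher and 22.5% lower. E75, a nuclear receptor induced by ecdysone, lay at 3343 and 1675 CPM, just under 2-fold. The juvenile hormone response factor Kr-h1 lay at 656 and 462 CPM, a log2 ratio of 0.51 that was 1.18 at matched depth, and the ecdysone receptor Ecr at 555 and 706 CPM. The median log2 ratio of the list was 0.51. It ranged from -0.52 without the filter on low counts to 0.96 over the alternatives, so the list has no stable direction.

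Few named genes bore on the sugar handling of these nuclei. Tret1, a trehalose transporter that the study uses as a marker of surface glia, stood at 3240 CPM in members and 782 CPM in other barcodes, 4.14-fold higher, with a median of 3 and 0 thinned UMIs per barcode. Mdr49, a transporter of the same barrier, lay at 655 and 342 CPM. The insulin receptor gene InR-2 stood at 153 and 59.8 CPM, 2.57-fold higher.

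Among 11 enzyme genes of central carbon metabolism, 9 could be compared, of which 4 were at least 2-fold higher in members and 0 at least 2-fold lower. Those with the most UMIs were OGDC, of the tricarboxylic acid cycle, at 160 CPM in members and 154 in other barcodes, Pgd at 305 and 78.2 CPM, and HK, hexokinase, at 85.0 and 62.5 CPM. Pgd encodes 6-phosphogluconate dehydrogenase of the pentose phosphate pathway, and was found in 25.7% of thinned members and 7.13% of other thinned barcodes. Further genes of the pathway, named after their values were seen, were TKT (transketolase), at 176 and 29.5 CPM, and Rpi (ribose-5-phosphate isomerase), at 43.9 and 12.7 CPM. The fold was 5.98 for TKT, 3.90 for Pgd and 3.46 for Rpi. TKT had a UMI in 38.3% of members and 9.18% of other barcodes, and Rpi in 11.9% and 4.31%. Both passed the filter through members alone, so the number of higher genes in this list was in part set by the filter. The pathway gene 6Pgl was too low to be compared by the rule, at 13.4 and 9.09 CPM. Pgi, which links glucose 6-phosphate to glycolysis, lay at 101 and 42.2 CPM, a log2 ratio of 1.25 that was 0.89 at matched depth. Tpi, fbp and Idh lay within 2-fold. The median log2 ratio of the list was 0.44 and stayed between 0.20 and 0.68 over the alternatives. Of all compared genes, 10.1% were at least 2-fold higher and 22.5% lower.

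Other genes past 2-fold were named after their values were seen. Ac3, an adenylyl cyclase, stood at 1163 CPM in members and 117 CPM in other barcodes, 9.95-fold higher, and Y-h (yellow-h) at 261 and 23.3 CPM, 11.2-fold higher. Over the ddH2O library, Ac3 lay at 229 CPM, above the other BRC barcodes, whereas Y-h lay at 0.52 CPM. A high level of Ac3 was thus not confined to these nuclei. C1q-VP, counted in the immune list, stood at 800 and 88.1 CPM, 9.08-fold higher. Of 5 genes of that list that could be compared, it was the 1 at least 2-fold higher and 0 were at least 2-fold lower. The median log2 ratio of the immune list was -0.35, and 10.1% of all compared genes were at least 2-fold higher. CSP1 and CSP3, of the chemosensory protein family, had log2 ratios of 2.31 and 1.29, of which that of CSP3 was 0.75 at matched depth. In contrast to most transmitter receptor genes, nAChRa9, a nicotinic acetylcholine receptor subunit, was higher in members, at 42.6 against 6.27 CPM. It was found in 10.9% of members and 2.13% of other barcodes, so it passed the filter through members alone.

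**Figure D2:**
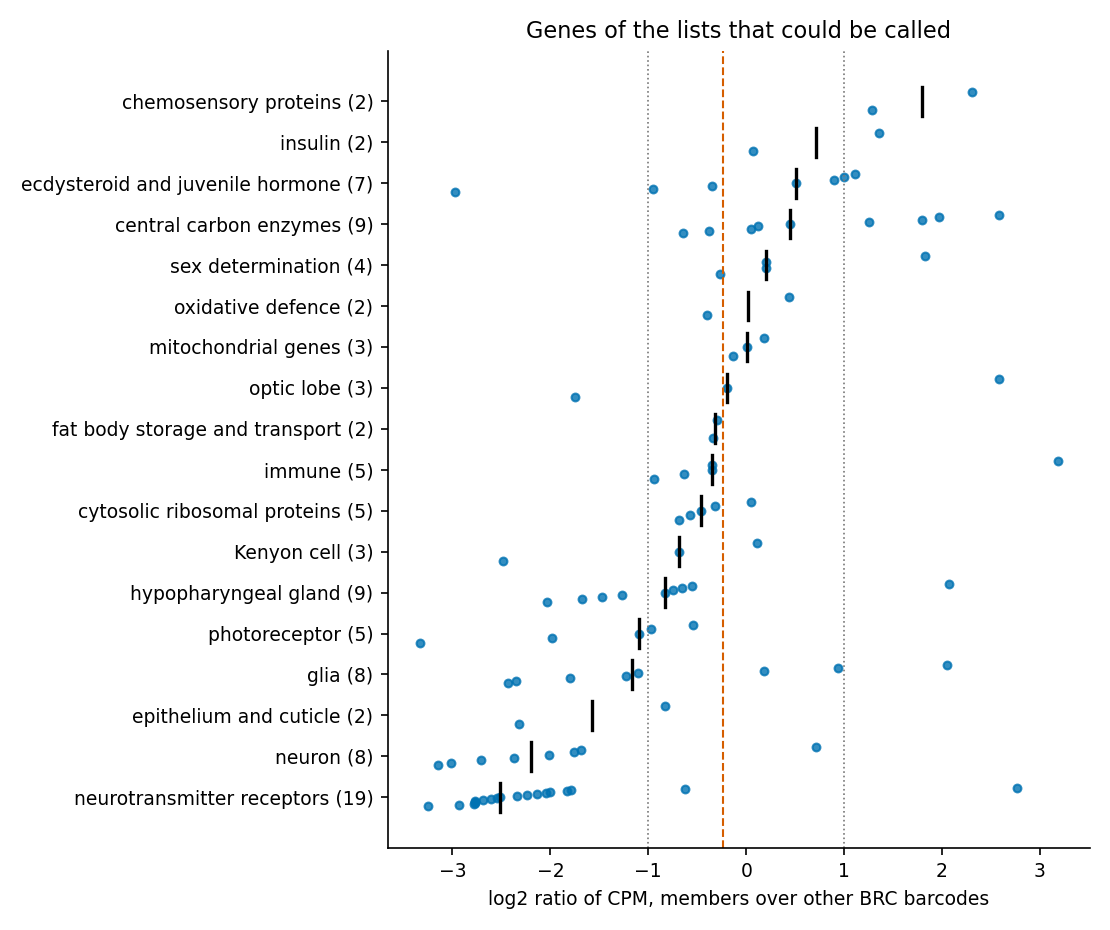
Log2 ratio of CPM in members over other BRC barcodes (x axis) for each gene that could be compared, by gene list (y axis, number of genes in parentheses, lists with at least 2). Black bars are list medians, the orange dashed line is the median over all genes, -0.24, and dotted lines mark 2-fold; most neuronal and transmitter receptor genes lie left of the dotted line at -1, whereas the pentose phosphate genes, Dsx and C1q-VP lie to the right of that at 1.

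Genes of neurons were low in the members. Of 8 pan-neuronal and synaptic genes, 7 were at least 2-fold lower and 0 at least 2-fold higher, with a median log2 ratio of -2.19. Over all compared genes, 22.5% were at least 2-fold lower and 10.1% higher. The voltage-gated channel genes Cac and Para lay at 142 and 193 CPM in members against 932 and 777 in other barcodes, and the RNA-binding protein gene fne at 121 against 629 CPM. Syx1A, for a syntaxin of vesicle fusion, was the exception, at 1144 and 697 CPM. The scaffold gene of active zones, brp, lay at 61.0 and 539 CPM, and 98 members (6.53%) had at least 3 of the 4 pan-neuronal markers. Among 19 transmitter receptor genes, 17 were at least 2-fold lower and 1 higher, with a median of -2.52. Dop3, the D2-like receptor on which BRC acts, lay at 29.6 CPM in members and 226 CPM in other barcodes, and 4.20% of members had a UMI of it. It is named here because of the treatment. Of the 3 Kenyon cell genes, PLCe lay at 417 and 2337 CPM, whereas mub (1370 and 2210 CPM) and trio (424 and 393 CPM) lay within 2-fold.

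Glial genes gave a mixed picture. The glial transcription factor gene repo lay at 51.6 CPM in members and 263 CPM in other barcodes, and 3.40% of thinned members had a UMI of it. Of 8 glial genes, Tret1 was at least 2-fold higher and 5 were at least 2-fold lower, with a median log2 ratio of -1.17. Over all compared genes, 10.1% were at least 2-fold higher and 22.5% lower. GlnS, glutamine synthetase of astrocytes, lay at 244 and 572 CPM, and e (ebony), of ensheathing glia, at 226 and 486 CPM. With the top 3000 as members their log2 ratios of -1.23 and -1.11 became -0.79 and -0.54, within 2-fold. The surface glia marker vkg, a collagen gene, could not be compared by the rule and lay at 11.2 and 56.1 CPM.

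Markers of tissue outside the brain were compared in the same way, and the part of such tissue in the group was not tested. All 10 genes of fat body storage and transport had UMIs in the library. Their summed level was between 230 and 295 CPM in 5 bands of 300 members and 333 CPM in other barcodes. Tsf1 (transferrin) supplied most of it, at 203 and 249 CPM, and Fabp, a fatty acid binding protein gene, stood at 36.2 and 45.9 CPM. The defining storage genes stood at low CPM in members and in other barcodes. Over 1500 members and 4554271 UMIs, Hex70a, Hex70c and Hex110 each had 1 UMI, Vhdl 2, HEX70b 3, the adipokinetic hormone receptor gene Akhr 7 and Vg (vitellogenin) 63. Vhdl lay at 0.44 CPM in members and 0.33 in other barcodes, Hex70a at 0.22 and 0.69 CPM, and HEX70b at 0.66 and 1.47 CPM. Vg lay at 13.8 CPM in members and 25.1 in other barcodes, and 3.53% and 4.14% of them had a UMI of it. The highest count of Vg in a thinned barcode was 6 UMIs among members and 48 among other barcodes. Cyp4g11, the P450 gene of hydrocarbon synthesis in oenocytes, had 16 UMIs in members, 3.51 CPM against 10.9 in other barcodes. The hemocyte gene PPO lay at 11.2 and 22.6 CPM, and 7 troponin genes of muscle summed to 38.4 and 74.3 CPM, with TpnCIIb at 0 UMIs in members. Among 24 genes of epithelium and cuticle, 2 could be compared, too few to describe the list. Of these, grh was at least 2-fold lower, beside 22.5% of all compared genes. It lay at 58.6 and 293 CPM, a log2 ratio of -2.32 that was -0.59 with the top 3000 as members. Antp, a Hox gene of the trunk, had 3 UMIs in members, a log2 ratio of -4.16 (-6.44 to -2.60), and Ubx had 4.

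Secreted gland and immune transcripts were present in most barcodes of the library, members or not. Mrjp1, a major royal jelly protein gene of the hypopharyngeal gland, was found in 99.8% of members and 99.7% of other barcodes, at 2556 and 3765 CPM. Hbg3, an alpha-glucosidase gene of the same gland, was found in 90.8% and 92.5%, and the antimicrobial peptide gene Def1 in 93.1% and 94.4%. The long-wavelength opsin gene Lop1 was found in 81.3% and 85.5%. In ddH2O these genes lay at 379, 20.6, 27.3 and 11.9 CPM, against 3765, 3016, 1298 and 1007 CPM in the other BRC barcodes. Of 9 gland genes that could be compared, 4 were at least 2-fold lower in members, beside 22.5% of all compared genes, and Mrjp8 was higher. The lower ones are not firm, since against other barcodes of the same depth the log2 ratio of Hbg3 was -0.52 instead of -1.67 and that of Mrjp6 -0.37 instead of -1.48. Whether such evenly found transcripts were free RNA was not tested.

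Within the group, the levels of genes that had no part in the ranking differed in how far they moved with rank. Over 5 bands of 300 ranks, from the first to the last, FAR1 declined from 8394 to 4173 CPM and Crzr from 4271 to 2364 CPM, as the ranking imposes. Dsx lay at 3584 CPM in the first band and at 3178 CPM in the last, Tret1 at 3083 and 3213 CPM, and Ac3 at 1290 and 1160 CPM. The level of svp was 1687 CPM in the first band and 2008 CPM in the last. TKT lay between 141 and 197 CPM and Mblk-1 between 7801 and 8067 CPM in all 5 bands. CSP3 was lower in the last band than in the first, at 1225 against 1838 CPM, and CSP1 at 70.3 against 141 CPM. Neuronal transcripts were higher in the last band, with brp at 23.7 CPM in the first and 85.7 CPM in the last, Dop3 at 13.0 and 69.2 CPM, and the summed transmitter receptor genes at 808 (748 to 871) and 1344 (1270 to 1422) CPM. In thinned counts, the variance over the mean across members had a median of 1.06 over 1484 genes with a mean of at least 0.1 UMIs, where Poisson sampling alone gives a value of 1. It was above 2 for 34 of these genes in members and for 220 in other barcodes. FAR1 was among the 34, at 2.60.

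The levels did not end at rank 1500. In the 500 barcodes after the last member, svp lay at 1937 CPM, Dsx at 2798, Tret1 at 3082 and Ac3 at 986 CPM, close to the members. At ranks 2501 to 3000 svp had dropped to 1168 CPM and Ac3 to 533 CPM, and beyond rank 8000 they lay at 176 and 55.2 CPM. The barcodes at ranks 2501 to 4000 also differed in which of the 4 genes they held. Crzr had 0.509 UMIs per UMI of FAR1 in the first 300 members, 1.28 at ranks 2501 to 3000 and 1.81 in the next 1000 ranks. In these 2 bands Cyp4g11 lay at 36.3 and 46.3 CPM, against 3.13 to 4.53 CPM in the members' bands, and CSP3 at 1952 and 2079 CPM. Few barcodes carried the Cyp4g11 UMIs, which were found in 2.40% and 2.80% of thinned barcodes of those bands.

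**Figure D3:**
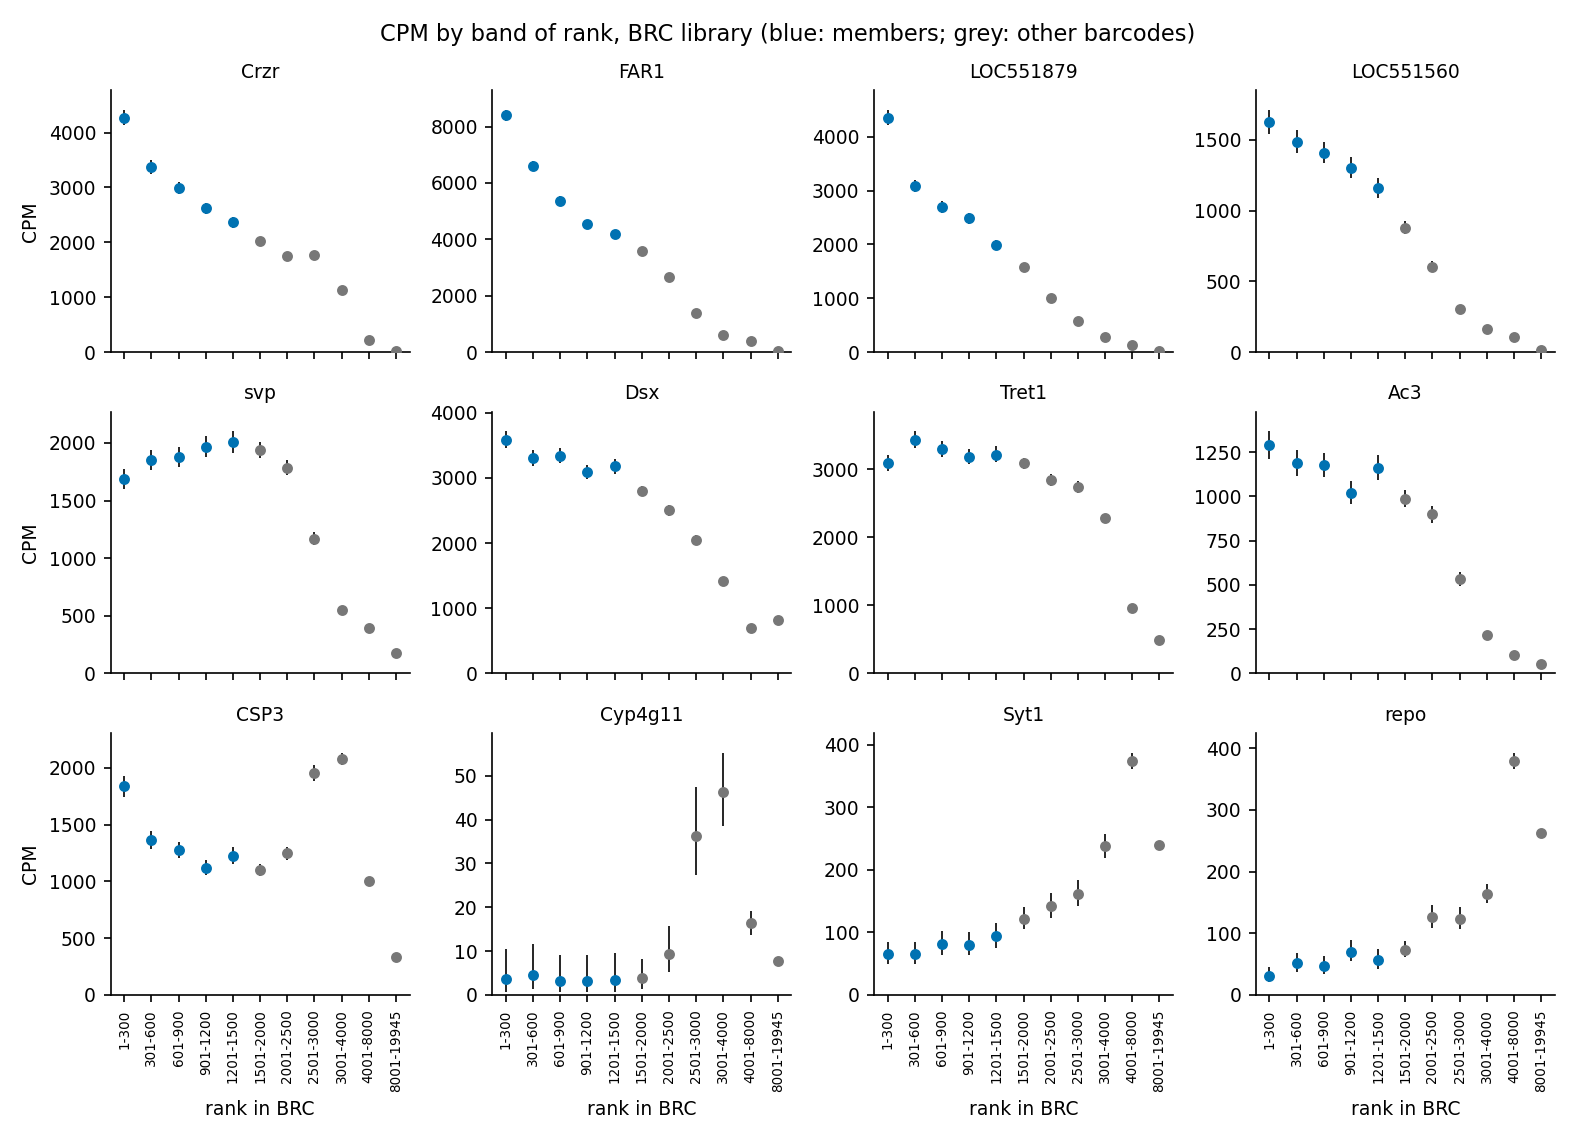
CPM (y axis, each from 0) of 12 genes in bands of rank (x axis) of the BRC library, with members in blue, other barcodes in grey and bars for 95% counting intervals. The genes of the first row chose the members; svp, Dsx, Tret1 and Ac3 stay high to rank 2000 and then decline, Cyp4g11 and CSP3 are high at ranks 2501 to 4000, and Syt1 and repo are low in members.

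Nearest neighbours were found from 2000 variable genes in thinned counts, with the 4 genes left out. Of the 30 barcodes nearest to a member, a median of 76.7% were members (quartiles 66.7% and 83.3%), whereas members made up 7.52% of all barcodes. The median was 83.3% in the first 300 ranks and 70.0% in the last 300. In the 500 barcodes after the last member it was 63.3%, at 2001 to 2500 it was 46.7%, and at 2501 to 3000 it was 3.33%. In all, 96.8% of the neighbours of members lay within rank 2500. Barcodes just outside the limit thus resembled members in the genes that the ranking did not use. The share depends on where the limit is set, with a median of 43.3% for the top 750 and 100% for the top 3000. Of the other barcodes, 643 had mostly members as neighbours, and 637 of these lay within rank 3000.

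**Figure D4:**
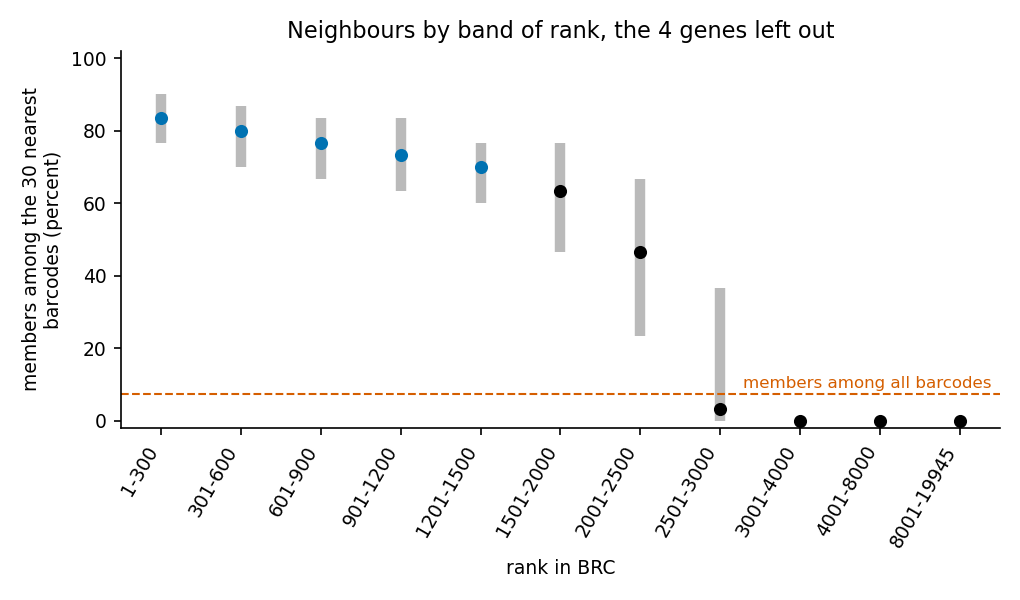
Members among the 30 nearest barcodes (y axis, percent) by band of rank (x axis) in the BRC library, with the 4 genes left out of the distance. Points are medians (blue: members; black: other barcodes), grey bars run between the quartiles, and the dashed line is the share of members among all barcodes, 7.52%; medians lie between 70.0% and 83.3% in members and at 3.33% for ranks 2501 to 3000.

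Over all members, 99.4% of the neighbours lay within rank 3000. A low share of members among them thus does not mean that a member stood apart from barcodes just outside the limit. In 114 members, at most 50% of the neighbours were members. Their FAR1 level was 7131 CPM (6836 to 7434) against 5656 CPM (5585 to 5728) in the other 1386 members, whereas LOC551879 lay at 1446 and 2997 CPM, LOC551560 at 793 and 1435 CPM and Crzr at 2147 and 3166 CPM. They thus had more FAR1 and less of the other 3 genes. The ranking by the sum of the 4 genes imposes part of this, since a member low in some must be high in another. Their svp level was 2514 and 1836 CPM and their summed level of the 8 neuronal genes 1887 and 1940 CPM. At least 3 pan-neuronal markers were found in 8.77% (4.29 to 15.5) of them and in 6.35% (5.12 to 7.76) of the others.

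The ddH2O library held next to no such barcodes among those listed. The lowest depth listed was 2475 UMIs in ddH2O and 1142 in BRC, whereas members began at 1143 UMIs with a median of 2685. Members below the lowest ddH2O depth thus had no ddH2O barcodes of like depth beside them, and thinning cannot restore barcodes that were not listed. Of 19999 ddH2O barcodes with 200 to 5000 genes, 1 (0.00500%, 0.000127 to 0.0279) passed the share of the last BRC member, against 7.52% (7.16 to 7.90) in BRC. With barcodes thinned to 1000 UMIs and a limit of 1%, these were 1 ddH2O and 1357 BRC barcodes (6.8%). The ddH2O barcode past the limit had 10 UMIs of Crzr, 35 of FAR1, 4 of LOC551879 and 6 of LOC551560 among 4219. It had 12 UMIs of Dsx, 14 of Ac3, 7 of svp, 5 of Tret1 and 2 of C1q-VP. Of the pan-neuronal markers it had 3 UMIs of nSyb, 1 of fne and 0 of Syt1 and brp, and it had 0 of repo. The next had a share of 0.828%, and 5 ddH2O barcodes in all held each of the 4 genes. Over the whole library, ddH2O had 622 UMIs of Crzr, 6254 of FAR1, 587 of LOC551879 and 138 of LOC551560, against 28380, 46010, 20626 and 11224 in the ranked barcodes of BRC. FAR1 supplied 82.3% of the UMIs of the 4 genes in ddH2O. With 1 library each, treatment, preparation and dissection cannot be told apart.

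These nuclei also carried weight in levels taken over the whole BRC library, where fewer nuclei of a kind and less RNA per nucleus cannot be told apart. Members held 28.2% of the library's UMIs of TKT, 20.4% of Pgd and 18.5% of Rpi. The log2 ratio of TKT between BRC and ddH2O was 2.10 (1.97 to 2.22) over all ranked barcodes, 1.71 (1.59 to 1.84) without members and 1.33 (1.20 to 1.46) without ranks 1 to 3000. For Pgd the same values were 1.89 (1.82 to 1.96), 1.65 (1.58 to 1.73) and 1.37 (1.29 to 1.45), and for Rpi 1.27, 1.07 and 0.95. The ratio of svp changed sign, from 0.50 (0.47 to 0.52) over all barcodes to 0.11 without members and -0.40 (-0.43 to -0.36) without ranks 1 to 3000. Dsx kept 2.17 of its 2.55 without ranks 1 to 3000, and Tpi, with 6.64% of its UMIs in members, lay at -0.73 and -0.75.

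**Figure D5:**
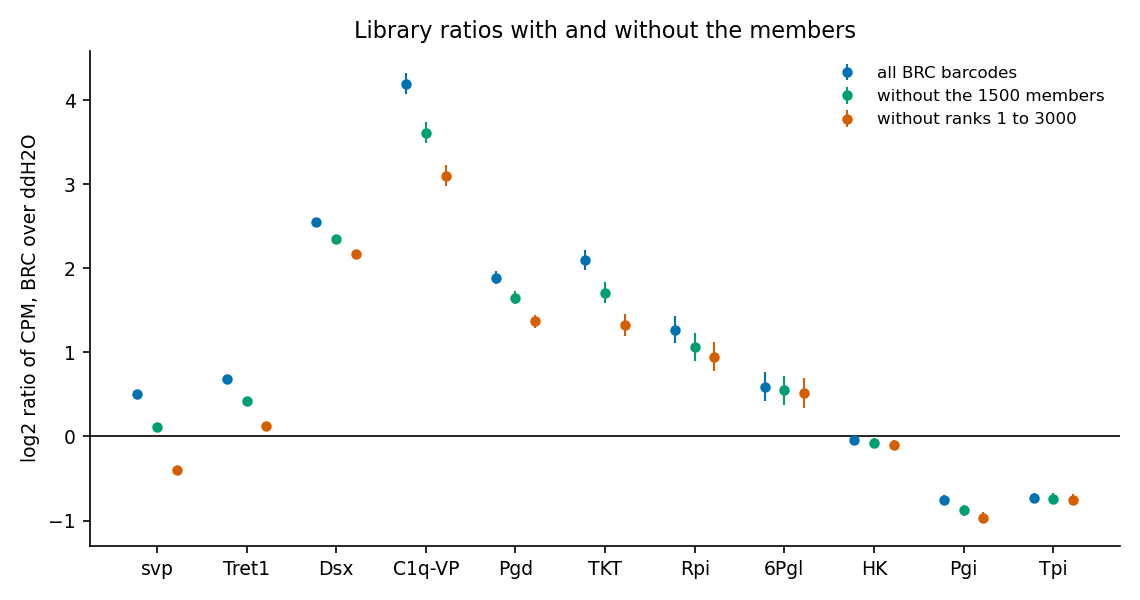
Log2 ratio of CPM in BRC over ddH2O (y axis) for genes named in the text (x axis), over all BRC barcodes with 200 to 5000 genes (blue), without the 1500 members (green) and without ranks 1 to 3000 (orange), with bars for 95% counting intervals. For TKT the ratio is 2.10, 1.71 and 1.33, whereas that of Tpi hardly moves.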

How the data were processed

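The deposited files are matrices of UMI counts per gene and barcode, which the authors made with Cell Ranger and did not normalize. By the file headers, BRC was made with version 7.2.0 and ddH2O with 7.0.1. The submitters' processing notes list only 7.0.1, besides Seurat 5.1.0 and R 4.4.0. Reads were aligned to Amel_HAv3.1 per the methods. The prefix before gene names was removed, and mitochondrial genes listed by locus tag were renamed through RefSeq, which matched 12245 of 12635 BRC features. Depth was 76531513 UMIs in BRC and 77047419 in ddH2O.

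Barcodes with 200 to 5000 genes were ranked, ties going to more UMIs. UMIs were summed over members and over other barcodes and given as CPM. Ratios have exact conditional Poisson intervals, and shares and CPM exact Clopper-Pearson intervals. Called means at least 2-fold among genes with at least 100 UMIs over both groups and a UMI in over 10% of the barcodes of either. Neighbours were the 30 barcodes with the highest cosine of log counts over 2000 variable genes. Doublets were kept, and scored against simulated pairs for an alternative (0.8% per 1000 barcodes). Tools were numpy 2.4.6, pandas 2.3.3 and scipy 1.17.1 under Python 3.11.15. The ratio step was tested on simulated data.

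The members and gene lists were chosen with earlier results of these data known, and the lists were written out by symbol after the files were opened, because the reference holds no gene descriptions. Some lists, among them Hox, sex determination, chemosensory and enzyme genes, were added then. Genes are named by rule as the 4 ranking genes, the 15 highest and 10 lowest ratios (identifiers for at most 2 each way), the listed genes with the most UMIs and defining markers of other tissues. Others were named after their values were seen. Alternatives changed the barcode filter, doublets, the number of members, the ranking genes, scaling, depth, the low-count filter and the neighbours. No sequence is shown.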

Additional observations from a re-analysis of the deposited data

How the results depend on the processing

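The numbers of genes at least 2-fold higher or lower (433 and 962) stayed within 1.5 times of these values under all alternatives but 1. Without the filter on low counts they were 810 and 3102, since genes with few UMIs entered. Median-of-ratios scaling moved the median over all genes by 0.24 and gave 544 higher and 821 lower. Of 116 named genes past 2-fold, 92 stayed past it under each of the 16 alternatives that could give a value, and 0 changed sign. These 116 included the 4 ranking genes and genes taken because they were past 2-fold in these data. The count is therefore no independent check. Comparison against only the barcodes beyond rank 3000, and leaving out barcode sequences listed for both libraries, were chosen after seeing the data. The median share of members among neighbours (76.7%) was 80.0% with doublets left out, 43.3% and 100% for the top 750 and 3000, 73.3% without Crzr or LOC551560 in the ranking, 83.3% without FAR1, 70.0% without LOC551879, 80.0% with 15 neighbours and 73.3% with barcodes thinned to 500 UMIs. The number of ddH2O barcodes past the limit stayed at 1. Leaving out the 3182 barcodes most like simulated doublets removed 54 members (3.60%). No paired analysis was possible because each condition has 1 library. Levels under about 3 UMIs in the members cannot be read as present or absent.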
